A study of Mus musculus with 20 samples.

Results

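The 10 genes described here, Cldn5, Pecam1, Flt1, Kdr, Slco1a4, Slc2a1, Mfsd2a, Abcb1a, Tek and Ocln, are known markers of the endothelial cells that line brain vessels and build the blood-brain barrier. They were chosen by name, without a rule on their values but with earlier results of these data known. They are 10 of the 19463 genes in the expression table. All 10 were above 0 in every mouse and passed the filter on low values in every comparison.

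The study asked what the loss of Katnal2, a microtubule-related protein linked to autism, does to the mouse brain, and poly-A RNA of the whole brain was sequenced from 20 male mice of the C57BL/6J strain. Katnal2-KO and wild-type (WT) mice were taken at 3 weeks of age (P21) and at 10 weeks (P70), giving 4 groups of 5. The KO mice descend from ES cells with the Katnal2tm1a(EUCOMM)Wtsi allele, whose cassette was removed by Protamine-Flp and whose exon 3 was then deleted by HTNC, a cell-permeable Cre protein given to early embryos. The deletion is therefore present in every cell, the endothelium included, and rests on 1 targeted allele; mice of both genotypes were littermates housed together. Values are normalized counts, that is, read counts that the authors divided by a size factor for each mouse. Katnal2 itself averaged 89.0 ± 8.72 (SD, n = 5) in KO and 107 ± 7.38 in WT mice at P21, and 105 ± 11.8 and 122 ± 16.4 at P70, with no overlap of the genotypes at P21 and overlap at P70. These counts cover the whole gene, most of which lies outside the deleted exon, and so check the genotype only in part.

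Brain endothelial cells are sealed to each other by tight junctions and carry few transport vesicles, so that most nutrients cross only on dedicated carriers and many drugs are pumped back into the blood. Wnt signals from neural cells induce and maintain these properties, while vascular endothelial growth factor (VEGF) acting on the receptor Kdr drives the sprouting of vessels. Sprouting is active in the young postnatal brain and subsides as the vascular network matures.

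Whole brain holds neurons and glia far in excess of vessels, and in such tissue fewer endothelial cells and less RNA per endothelial cell cannot be told apart. The sum of the 10 genes lay between 8418 and 12909 normalized counts in the 20 mice, against 160728 to 177170 for 9 neuronal markers. Besides the 10 genes, all of 31 further endothelial identity genes, such as Cdh5 and Erg, were above 0 in each mouse. Depth, estimated from the smallest steps between values, moved with age: 27.8 to 35.3 M reads in WT and 26.2 to 36.4 M in KO mice at P21, against 23.9 to 28.1 M and 23.4 to 28.4 M at P70. The part of depth in the age results was not tested, and since the labels name no sequencing batch, age and batch cannot be told apart. Both mice with replicate number 5 at P70 stood apart from their groups: their deviations followed the GC content of the genes (r across genes of 0.50 in the WT and 0.54 in the KO mouse, against -0.29 to 0.16 in the other 18), and they were the deepest of their groups, at 28.1 and 28.4 M reads. Calls of the 10 genes with age that changed without them are given below.

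The genes lie on 6 chromosomes of the GRCm38 build and all code for proteins. The receptor genes are Kdr (ENSMUSG00000062960) at chr5:75932827-75978458 and Flt1 (ENSMUSG00000029648) at chr5:147561604-147726011, both on the minus strand, and Tek (ENSMUSG00000006386) at chr4:94739289-94874976 on the plus strand. The transporter genes are Slc2a1 (ENSMUSG00000028645) at chr4:119108711-119137983 and Abcb1a (ENSMUSG00000040584) at chr5:8660077-8748575 on the plus strand, with Mfsd2a (ENSMUSG00000028655) at chr4:122946850-122961188 and Slco1a4 (ENSMUSG00000030237) at chr6:141805440-141856199 on the minus strand. The junction and adhesion genes are Cldn5 (ENSMUSG00000041378) at chr16:18776847-18778262 on the plus strand, with Ocln (ENSMUSG00000021638) at chr13:100496507-100552718 and Pecam1 (ENSMUSG00000020717) at chr11:106654217-106750628 on the minus strand.

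Per kilobase of transcript, Slc2a1 (GLUT1), the carrier that brings glucose into the brain, stood highest among the 10 genes in every group. In WT mice at P21 it reached 1339 normalized counts per kb, followed by 632 for Mfsd2a, 590 for Cldn5 and 343 for Slco1a4. Mfsd2a carries lysophospholipids with docosahexaenoic acid and holds back vesicle formation, Cldn5 is the main claudin of the tight junction, and Slco1a4 is an organic anion transporter. Abcb1a (P-glycoprotein, a drug efflux pump) followed at 198, the VEGF receptor Flt1 at 175 and the adhesion molecule Pecam1 (CD31) at 132. Lowest were Kdr at 83.4, the junction protein occludin (Ocln) at 70.7 and the angiopoietin receptor Tek (TIE2) at 57.6. Neighbours in this order whose ranges over the 5 mice overlapped were Mfsd2a with Cldn5, Abcb1a with Flt1, Flt1 with Pecam1, and Kdr with Ocln. By P70 the order in WT mice kept Slc2a1 (1203 normalized counts per kb), Mfsd2a (455), Cldn5 (409) and Slco1a4 (214) at the top, and Kdr had gone from the 8th to the 10th place at 33.5. In KO mice Kdr went from the 9th place at 72.1 to the 10th at 44.9. Per kb of total exon length, Kdr was already lowest at P21, at 54.7 in WT mice (Tek 56.8) and 47.3 in KO mice (Tek 56.1). Its change of place thus depends on the length used.

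**Figure D1:**
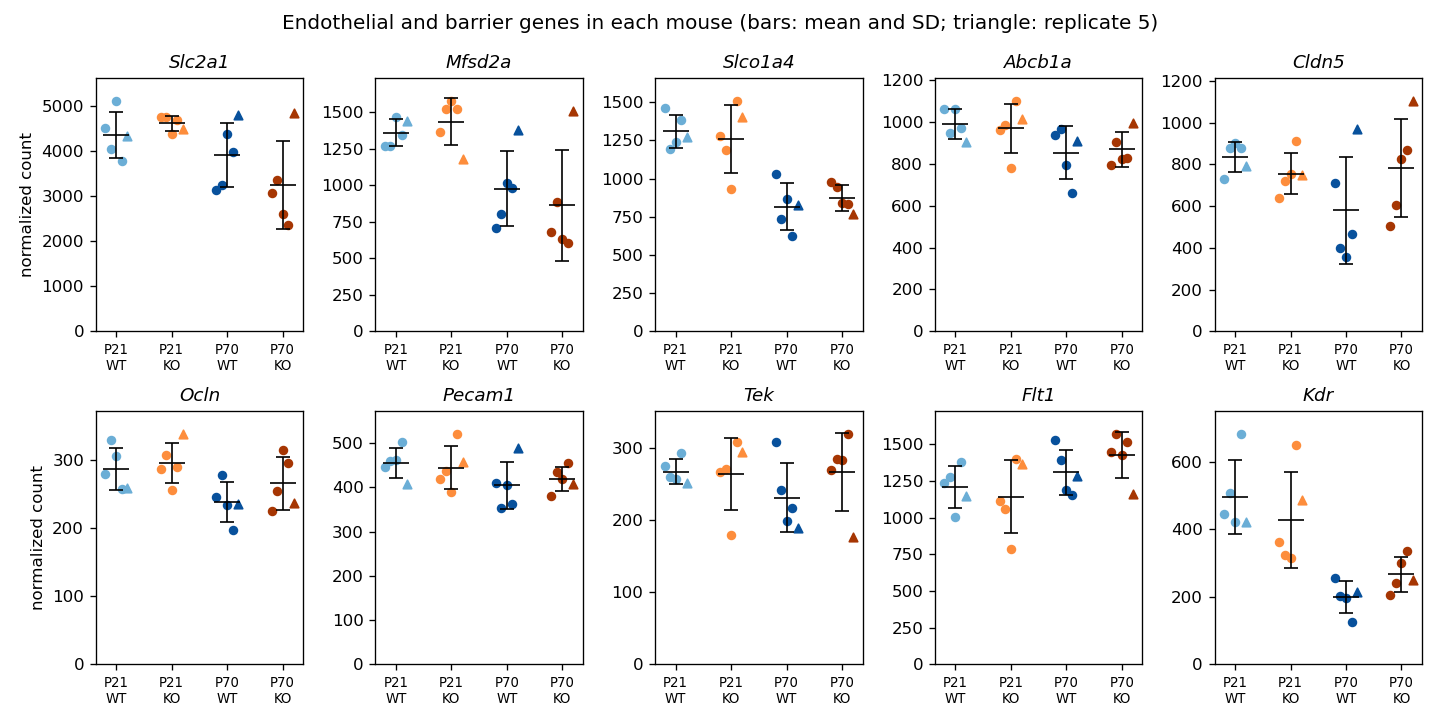
Normalized counts (y axis, from 0) of the 10 genes in each of the 20 mice by age and genotype (x axis); bars are the mean and SD of 5 mice, and triangles mark replicate 5. Kdr at P70 sits at 125.3 to 255.0 in WT mice, below all WT mice at P21 (419.9 to 680.2), while the P70 replicate 5 mice are the highest of their groups for Slc2a1, Mfsd2a and Cldn5.

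The comparison of P70 with P21 in WT mice asked how the vascular genes changed over the weeks in which the brain matures. Kdr, Slco1a4 and Mfsd2a fell, by 2.50-fold, 1.62-fold and 1.42-fold, and none of the 10 genes rose. That is 3 of 10 genes past the threshold in the downward direction, where 4.7% of all 17630 genes tested passed it downward and 4.62% upward. The median log2 difference of the 10 genes was -0.25, against 0.00 for all genes tested, and 9 of 10 had a lower mean at P70. In KO mice, which are other animals, 3 of 10 genes fell as well, where 4.53% of all 17641 genes passed the threshold downward and 3.78% upward. These were Mfsd2a (1.76-fold), Slco1a4 (1.43-fold) and Slc2a1 (1.47-fold), with a median of -0.16 for the 10 genes against -0.01 for all genes. At an unadjusted p under 0.05 in limma, 5 of the 10 genes passed in each genotype, where 24.5% of all genes did in WT and 22.7% in KO mice. Mfsd2a and Slco1a4 thus passed in both genotypes, which is 66.7% of the WT calls and 66.7% of the KO calls; over all genes, those called in both with the same sign made up 58.5% of the WT and 65.7% of the KO calls.

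Kdr (VEGFR2) is the receptor through which VEGF-A signals for endothelial growth. In WT mice it stood at 444.5, 505.7, 420.2, 680.2 and 419.9 normalized counts at P21 and at 255.0, 203.4, 196.2, 125.3 and 213.8 at P70. Every P70 value lay below every P21 value. The log2 difference was -1.32 (SE 0.18; limma with Benjamini-Hochberg adjustment over all genes, adjusted p = 0.000584), and a two-sided exact permutation test of the 5 against 5 mice gave p = 0.00794, the smallest it allows. In KO mice the values were 362.1, 324.4, 315.4, 648.6 and 486.4 at P21 and 205.2, 239.6, 299.2, 335.3 and 251.0 at P70. Here the ages overlapped only through the mouse at 335.3, which lay above 2 of the P21 mice. The log2 difference of -0.65 (95% interval -1.08 to -0.21) missed the threshold in KO mice (limma with Benjamini-Hochberg adjustment, adjusted p = 0.0681), although it passed without replicate 5 at P70 (adjusted p = 0.0474).

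Flt1 (VEGFR1), which binds the same ligand and is known as a decoy receptor, did not follow Kdr. Its values in WT mice were 1234.1, 1275.3, 1002.5, 1380.6 and 1146.6 at P21 and 1528.8, 1393.2, 1190.9, 1155.9 and 1282.8 at P70. The ages overlapped widely, with a log2 difference of 0.12 (95% interval -0.10 to 0.33; limma, Benjamini-Hochberg adjusted p = 0.509). In KO mice Flt1 was at 786.8 to 1400.5 at P21 (median 1112) and at 1163.1 to 1567.0 at P70 (median 1447), a log2 difference of 0.34 (0.02 to 0.66) with an adjusted p of 0.188. Without replicate 5 of the P70 KO mice the difference was 0.41 and passed the threshold (limma with Benjamini-Hochberg adjustment, adjusted p = 0.0489). As a description, the ratio of Flt1 to Kdr normalized counts in a mouse was 2.03 to 2.78 in WT and 2.16 to 3.26 in KO mice at P21, and 6.00 to 9.23 and 4.52 to 7.05 at P70. The ages did not overlap in either genotype, and at P70 the genotypes did. The ratio was not among the planned measures. It joins the gene with the largest fall in WT mice to the only gene of the 10 with a higher mean at P70. How often other pairs of genes separate in this way was not counted.

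Tek, the receptor of the angiopoietins that steady mature vessels, averaged 268 ± 17.0 normalized counts (SD, n = 5) in WT mice at P21 and 232 ± 47.6 at P70. Its range at P70 enclosed that at P21, and the log2 difference was -0.23 (95% interval -0.50 to 0.04) in WT and 0.01 (-0.37 to 0.40) in KO mice. Both missed the threshold.

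Among the transporters, Slco1a4 fell in both genotypes. It stood at 1458.2, 1193.5, 1239.5, 1382.7 and 1274.3 normalized counts in WT mice at P21 and at 1030.1, 733.4, 866.2, 622.9 and 829.5 at P70, with no overlap. The KO mice gave 1275.5, 1185.1, 929.4, 1504.6 and 1402.9 at P21 and 974.9, 943.7, 839.6, 831.2 and 766.0 at P70, where the P21 mouse at 929.4 lay below 2 of the P70 mice. In limma with Benjamini-Hochberg adjustment the log2 difference was -0.70 (SE 0.12, adjusted p = 0.00247) in WT and -0.52 (SE 0.12, adjusted p = 0.0212) in KO mice. Kdr and Slco1a4 were the 2 of 10 genes whose ages did not overlap in WT mice, where 10.8% of all genes tested did not overlap. In KO mice none of the 10 genes was free of overlap, where 10.9% of all genes were.

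Mfsd2a stood at 1268.1, 1272.8, 1466.0, 1348.8 and 1443.5 normalized counts in WT mice at P21 and at 709.5, 802.7, 1016.5, 981.5 and 1379.1 at P70. In KO mice it stood at 1367.7, 1521.2, 1575.7, 1526.9 and 1182.8 at P21 and at 679.6, 889.5, 630.3, 608.5 and 1511.7 at P70. In each genotype 4 of the 5 P70 mice lay below every P21 mouse, and the exception was replicate 5, which lay within the P21 range. With all mice the log2 difference was -0.51 (SE 0.14; limma with Benjamini-Hochberg adjustment, adjusted p = 0.0385) in WT and -0.81 (SE 0.21, adjusted p = 0.0350) in KO mice. Without replicate 5 at P70 it was -0.64 (adjusted p = 0.00108) and -1.04 (adjusted p = 5.93e-05). The call was fragile to the choice of mice: when 1 mouse at a time was left out, Mfsd2a kept it in 1 of 10 WT and 2 of 10 KO fits. Slco1a4 kept its call in 10 of 10 WT but 5 of 10 KO fits, and Kdr kept its call in 10 of 10 WT fits.

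For Slc2a1 the WT values were 4526.3, 4058.7, 5113.1, 3778.2 and 4342.3 normalized counts at P21 and 3150.5, 3252.4, 4398.2, 3998.4 and 4802.7 at P70. The KO values were 4775.2, 4771.4, 4395.9, 4698.5 and 4505.4 at P21, then 3085.4, 3359.3, 2603.5, 2361.5 and 4862.2 at P70. Again replicate 5 of the P70 KO mice lay alone, above all P21 KO mice, and the other 4 lay below all of them. The log2 difference was -0.17 (95% interval -0.42 to 0.09) in WT mice and -0.55 (SE 0.15; limma with Benjamini-Hochberg adjustment, adjusted p = 0.0459) in KO mice. Without replicate 5 at P70 it was -0.71 in KO mice (adjusted p = 0.000133) and -0.24 in WT mice (adjusted p = 0.132); the call with all mice was kept in 1 of 10 KO fits that left out 1 mouse. Abcb1a was at 658.5 to 967.3 normalized counts in WT mice at P70 against 902.1 to 1061.9 at P21, a log2 difference of -0.22 (-0.45 to 0.00), with -0.15 (-0.37 to 0.06) in KO mice.

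Of the junction and adhesion genes, none passed the threshold in either genotype with all mice. Cldn5 varied most, at 728.3, 878.0, 904.3, 878.1 and 791.5 normalized counts in WT mice at P21 and 710.0, 399.7, 354.5, 466.3 and 967.8 at P70. Of these P70 mice 4 lay below every P21 mouse and replicate 5 lay above all of them. Its log2 difference in WT mice was -0.63 (95% interval -1.11 to -0.15; limma with Benjamini-Hochberg adjustment, adjusted p = 0.0967), and -0.84 without replicate 5 at P70 (adjusted p = 0.00395). In KO mice Cldn5 went from 641.3, 722.7, 754.2, 914.3 and 751.3 to 503.4, 606.9, 824.3, 869.9 and 1102.4, a log2 difference of 0.00 (-0.40 to 0.40). Ocln gave -0.27 (-0.50 to -0.03; adjusted p = 0.153) in WT and -0.16 (-0.41 to 0.09) in KO mice. Pecam1 gave -0.18 (-0.39 to 0.04) and -0.08 (-0.28 to 0.12).

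The age difference was also averaged over WT and KO in 1 fit of the 20 mice, a comparison that was added after the data had been seen. Kdr (log2 difference -0.98, SE 0.14, limma with Benjamini-Hochberg adjusted p = 3.38e-05), Mfsd2a (-0.66, SE 0.14, adjusted p = 0.00124), Slco1a4 (-0.61, SE 0.09, adjusted p = 3.17e-05) and Slc2a1 (-0.36, SE 0.10, adjusted p = 0.0144) fell. These 4 of 10 genes passed downward and none upward, where 12.8% of all 17637 genes passed downward and 12.6% upward, and each of the 4 passed in all 20 fits that left out 1 mouse. Without both replicate 5 mice at P70, Cldn5 (-0.49), Abcb1a (-0.23) and Pecam1 (-0.16) passed downward as well and Flt1 (0.27) upward, which made 8 of 10 genes, where 18.3% of all 17652 genes passed downward and 18.9% upward in that fit. Tek and Ocln did not pass in either fit.

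**Figure D2:**
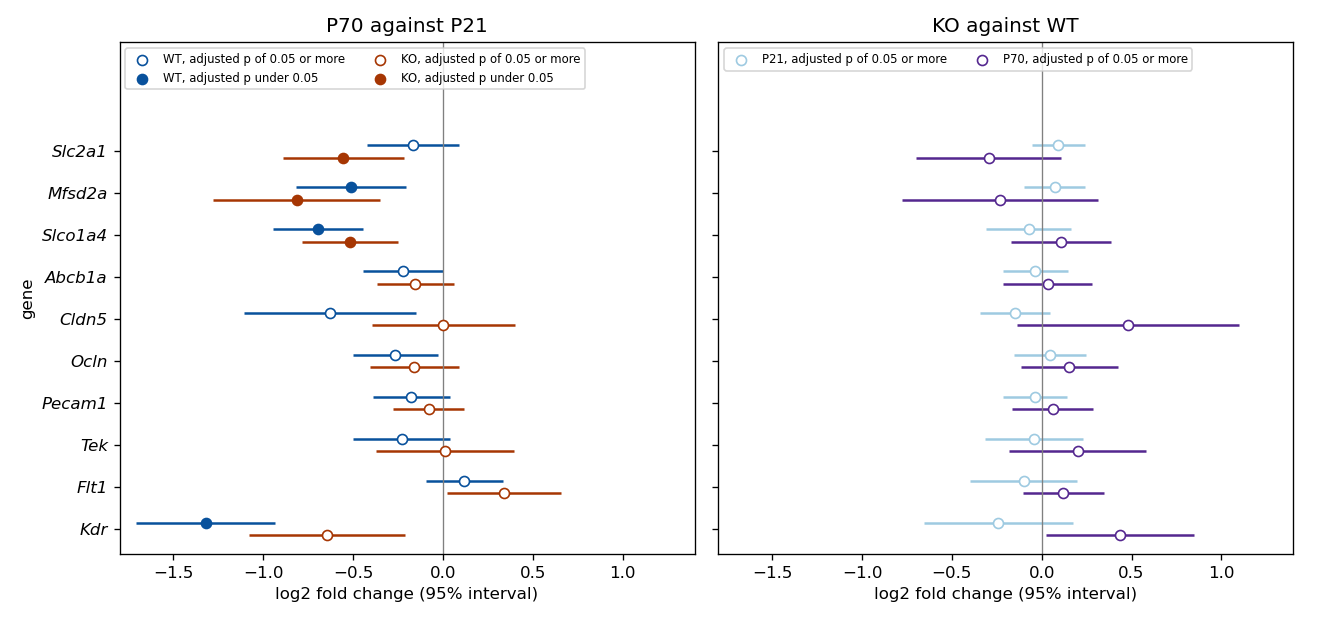
Log2 fold changes (x axis) of the 10 genes (y axis) with 95% intervals, for P70 against P21 in WT and KO mice (left) and for KO against WT mice at P21 and P70 (right); filled points have an adjusted p under 0.05. Kdr, Slco1a4 and Mfsd2a in WT mice and Slco1a4, Mfsd2a and Slc2a1 in KO mice are the filled points, all on the left panel and below 0.

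The comparison of Katnal2-KO with WT mice at each age addressed the effect of the mutation. None of the 10 genes differed at P21 or at P70 in limma with Benjamini-Hochberg adjustment, where 0% of all genes passed at either age. At an unadjusted p under 0.05, none of the 10 passed at P21 (2.44% of 17610 genes) and 1 passed at P70 (1.13% of 17613 genes). No gene of the 10 had KO and WT values free of overlap, where 0.46% of all genes did at P21 and 0.193% at P70. The log2 differences of the 10 genes lay between -0.24 (Kdr) and 0.09 (Slc2a1) at P21, with a median of -0.04, and between -0.30 (Slc2a1) and 0.48 (Cldn5) at P70, with a median of 0.11.

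How large a difference could have been missed varied with the gene. At P21 the 95% intervals were narrowest for Slc2a1 (-0.06 to 0.24 on the log2 scale) and widest for Kdr (-0.66 to 0.17). For Cldn5 at P70 the interval was widest, from 0.910-fold to 2.14-fold. On the log2 scale at P70 the intervals ran from -0.78 to 0.31 for Mfsd2a, from -0.70 to 0.11 for Slc2a1 and from -0.18 to 0.58 for Tek. For the other barrier and adhesion genes at P70 they stayed closer to 0, at -0.22 to 0.28 for Abcb1a, -0.17 to 0.39 for Slco1a4, -0.12 to 0.43 for Ocln and -0.16 to 0.28 for Pecam1, and the interval of Flt1 was -0.11 to 0.35.

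The gene at an unadjusted p under 0.05 at P70 was Kdr, which was higher in KO mice by 0.43 on the log2 scale (SE 0.19, 95% interval 0.02 to 0.84, unadjusted p = 0.0396 and adjusted p = 1.00 in limma). A two-sided exact permutation test gave p = 0.0794. The smaller fall of Kdr with age in KO than in WT mice was tested as the interaction of age and genotype: it came to 0.68 (95% interval 0.07 to 1.28, unadjusted p = 0.0295, adjusted p = 1.00 in limma), with 1.68% of 17637 genes below an unadjusted p of 0.05. None of the 10 genes passed the interaction after adjustment, where 0% of all genes passed. The interaction was 0.63 (-0.03 to 1.29) for Cldn5 and -0.39 (-0.82 to 0.05) for Slc2a1, so a difference between genotypes in the course of any of the 10 genes was not shown.

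How the 10 genes moved together from mouse to mouse was described by the correlation of their log2 values over the 20 mice after the mean of each group was subtracted; the mice differ in depth and in their response to GC content, which all genes of a mouse share, so these values are descriptions. Of the 45 pairs 34 had an r above 0, with a median of 0.29. Without Slc2a1 and Mfsd2a, 27 of the remaining 28 pairs were above 0, with a median of 0.46. Highest among these were Flt1 with Tek (r 0.84), Flt1 with Slco1a4 (0.76), Pecam1 with Kdr (0.72) and Flt1 with Kdr (0.71). Against the mean of the other 9 genes, Pecam1 (0.82) and Abcb1a (0.74) followed most closely, and Tek (0.14), Slc2a1 (-0.05) and Mfsd2a (-0.09) least.

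Slc2a1 and Mfsd2a formed a pair of their own. Their r was 0.90 (Spearman rho 0.77), and it came from the P70 mice, with 0.97 at P70 against 0.25 at P21. By Pearson r over all 20 mice this was the highest of the 45 pairs, whereas by rho Flt1 with Tek (0.88) stood higher. Without both replicate 5 mice at P70 it was 0.78, where Flt1 with Tek gave 0.87, and it was 0.83 after a trend over gene length and GC content was subtracted from each mouse; these checks were added after the data had been seen. Across the P70 mice Slc2a1 ranged from 2361.5 to 4862.2 normalized counts and Mfsd2a from 608.5 to 1511.7, and the lowest and the highest mouse were the same for both genes. Tek ran against the pair at P70, with an r of -0.92 to Slc2a1 and -0.91 to Mfsd2a, where the lowest Tek value (176.6) was in the mouse with the highest value of both carriers. After the correction for length and GC content these were -0.83 and -0.81. At P21 the r of Tek was 0.04 to Slc2a1 and -0.45 to Mfsd2a. Over all 20 mice it was -0.69 and -0.78, and without both replicate 5 mice at P70 it was weaker, at -0.45 and -0.61.

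**Figure D3:**
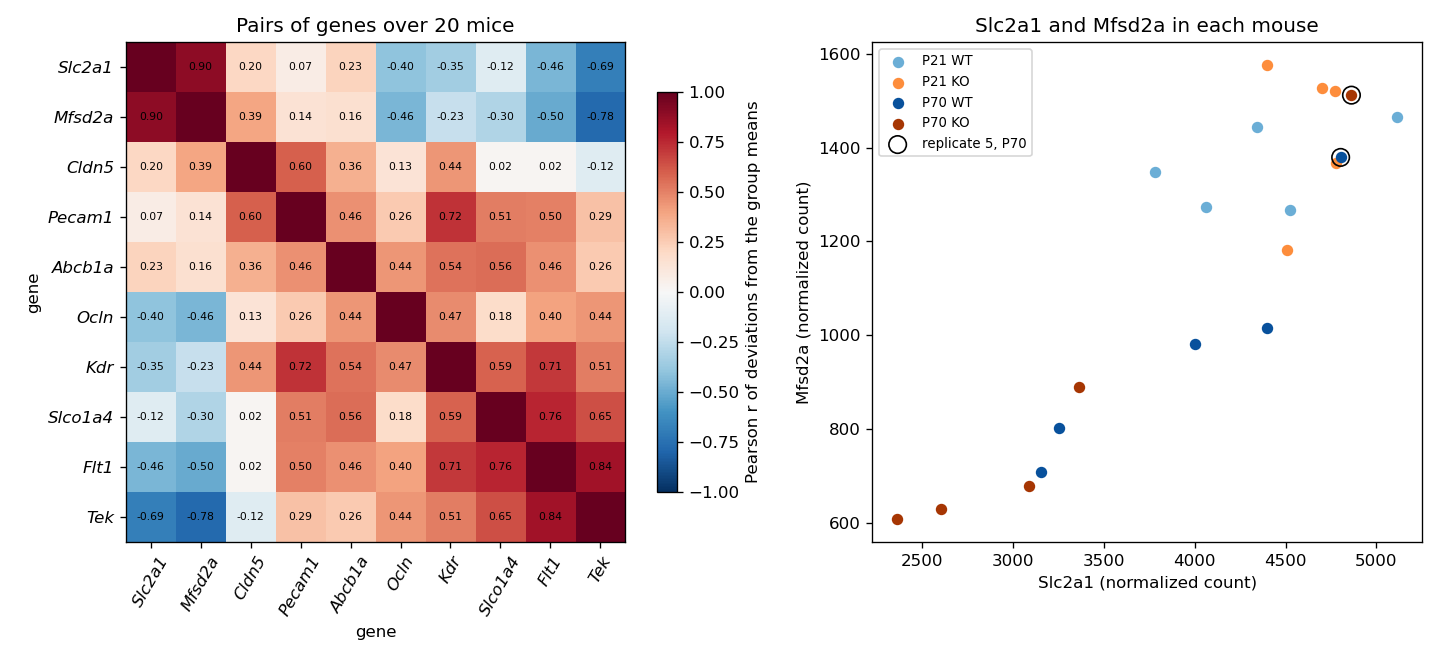
Left: Pearson r (colour and number) between the 10 genes (both axes) over 20 mice, from deviations of log2 values from the group means. Right: normalized counts of Slc2a1 (x axis) and Mfsd2a (y axis) in each mouse, coloured by group, with the P70 replicate 5 mice circled; the P70 mice lie along a line from 2361.5 and 608.5 to 4862.2 and 1511.7.

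The stretches before the starts of these 2 genes are shown because the pair had the highest Pearson r over the 20 mice. Both genes lie on chromosome 4. The sequences are the 250 bases before the RefSeq transcript start in GRCm38.p6, Slc2a1 at chr4:119108495-119108744 on the plus strand and Mfsd2a at chr4:122961189-122961438 on the minus strand, with capitals for each match to ACGTG, the core that hypoxia-inducible factors bind.
Slc2a1: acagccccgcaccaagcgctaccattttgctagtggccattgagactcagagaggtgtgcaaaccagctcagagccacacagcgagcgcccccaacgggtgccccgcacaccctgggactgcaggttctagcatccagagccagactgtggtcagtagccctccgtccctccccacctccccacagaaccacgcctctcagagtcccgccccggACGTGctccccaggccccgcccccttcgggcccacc
Mfsd2a: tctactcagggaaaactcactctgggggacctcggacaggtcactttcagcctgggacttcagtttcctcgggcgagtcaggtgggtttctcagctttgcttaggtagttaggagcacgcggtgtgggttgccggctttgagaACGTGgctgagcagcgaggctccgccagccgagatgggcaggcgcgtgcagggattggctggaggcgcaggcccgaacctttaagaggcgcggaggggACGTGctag

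ACGTG, read on both strands, stood 36 bases before the RefSeq start of Slc2a1 and 107 and 9 bases before that of Mfsd2a. GENCODE places the start of Slc2a1 34 bases farther upstream, so that the match overlaps the GENCODE start and the last 34 bases shown lie inside the GENCODE transcript. These were the 2 of the 9 genes with a RefSeq promoter sequence here that held it, against 16.6% of 32851 promoters of the same length. The windows of both are rich in G and C, at 66.4% for Slc2a1 and 61.6% for Mfsd2a against a median of 52.4% for all promoters. Of the other motifs searched, GGGCGG (SP factors) was in 5 of 9 genes (32.7% of all promoters), AGGAAG (ETS factors, the family of the endothelial regulators Erg and Fli1) in 3 of 9 (29.5%), TATAAA in 1 of 9 (12.4%). The letters CTTTGAT, which TCF and LEF factors bind, were in none of the windows of the 9 genes, against 3.2% of all promoters. Ocln has 2 RefSeq starts and so 2 windows. A gene was counted if any of its windows matched, whereas the share of all promoters is per window. The Abcb1a window in these counts, at chr5:8566841-8567090, lies far upstream of the GENCODE gene start at 8660077. It is 1 of the 3 that held AGGAAG. The motifs were picked after the pair had been seen, and a match in a window of this length is a description of the letters, not a binding site.

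Outside the 10 genes, the genes whose deviations followed the mean of the 10 most closely over the 20 mice were Eng (r 0.91), Lef1 (0.89), Ushbp1 (0.87), Tie1 (0.85), Zdhhc24 (0.84), Ap4m1 (0.84), Erg (0.82), Epas1 (0.81), Lsr (0.79) and Hlx (0.79). Eng (endoglin), Tie1, Erg and Epas1 are known endothelial genes, and Lef1 is a transcription factor of the Wnt pathway. For Eng the r was 0.95 at P21 and 0.89 at P70. Its own level was 779 ± 71.7 normalized counts in WT mice at P21 and 601 ± 152 at P70.

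Other genes of the vascular pathways were taken from lists, and their changes with age are given in limma with Benjamini-Hochberg adjustment over all genes. Of 31 endothelial identity genes, 6 fell and none rose in WT mice and 2 fell and none rose in KO mice, with medians of -0.25 and -0.18. Of all genes 4.7% passed downward in WT and 4.53% in KO mice, against which these and the following counts are to be read; 2 of 31 genes in KO mice is near that share. Itm2a (log2 difference -0.56 in WT and -0.48 in KO mice) and Adgrl4, an adhesion receptor of endothelial cells (-0.48 and -0.59), fell in both. The transcription factor genes Erg (-0.86) and Sox7 (-0.86) fell in WT mice, with -0.26 and -0.06 in KO mice. Without replicate 5 at P70, 14 of the 31 genes fell and 1 rose in WT mice, and 9 fell and 3 rose in KO mice. In those fits 8.11% of all 17644 genes fell and 8.89% rose in WT mice, and 10.7% of 17654 fell and 10.6% rose in KO mice.

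Of 27 further barrier transporters and pumps, 7 fell and none rose in WT mice and 6 fell and 1 rose in KO mice, and 6 fell in both, which is 85.7% of the calls of each genotype. The largest falls shared by both were those of Slc19a3, a thiamine carrier, at -0.67 in WT and -0.65 in KO mice, and of Slc16a1 (MCT1), the carrier of lactate and ketone bodies, at -0.62 and -0.47. Slc16a1 stood at 1065 to 1441 normalized counts in WT mice at P21 and at 740.7 to 962.1 at P70. Without replicate 5 at P70, 9 of the 27 fell and none rose in WT mice, and 11 fell and 2 rose in KO mice. Of 13 junction genes, only Jam3 passed with all mice, falling in both genotypes (-0.35 and -0.49). Without replicate 5, 3 junction genes fell in WT mice, and 2 fell and 1 rose in KO mice.

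In the list of the sprouting tip cell, Aplnr, the receptor of apelin, passed the filter on low values only through its P21 values. It fell from 33.1 ± 7.1 normalized counts (SD, n = 5) to 5.8 ± 1.4 in WT mice and from 28.4 ± 10.0 to 9.4 ± 4.3 in KO mice, log2 differences of -2.34 and -1.53. Mcam (CD146), an adhesion molecule of endothelium and pericytes, fell by 0.93 and 0.89 on the log2 scale, and Trp53i11 rose by 0.50 in each. In all, 4 of 14 genes of this list fell and 1 rose in WT mice, and 3 of 15 fell and 1 rose in KO mice. The falling genes of both genotypes include Aplnr, which would not have been tested without its P21 values. In the list of Wnt and Norrin signalling, Apcdd1, a Wnt target and inhibitor, fell by 1.11 in WT and 1.07 in KO mice, Ctnnb1 (β-catenin) fell by 0.36 and 0.28, and Wnt7b, a ligand of the barrier pathway, rose by 0.35 and 0.38. The other 19 of 22 genes did not pass in either genotype with all mice; without replicate 5 at P70, 3 rose and 3 fell in KO mice, and the counts in WT mice were as with all mice.

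The ligand of Kdr did not show the change of its receptor. Vegfa gave log2 differences of 0.02 in WT and 0.05 in KO mice, and of 8 VEGF ligands and further receptors only Vegfb, a ligand of Flt1, passed with all mice, rising by 0.35 and 0.37. Without replicate 5 at P70, 3 of the 8 rose and 1 fell in KO mice. Around Tek, the phosphatase gene Ptprb (-0.54) and the ligand Angpt1 (-0.43) fell in WT mice, with -0.44 and -0.48 in KO mice, where neither passed. Angpt4, another Tek ligand, was low throughout, at 18.4 and 24.0 normalized counts on average in WT and KO mice at P21 and 1.20 and 2.34 at P70. It passed the filter on low values in KO mice alone, through its P21 values, so no test of it is given. In the Notch list, Mgp (-0.92 and -0.88) and Nrarp (-0.57 and -0.33) fell in both genotypes. Plvap, the diaphragm protein of fenestrated vessels, gave 0.29 in WT and 0.28 in KO mice and did not pass in either.

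**Figure D4:**
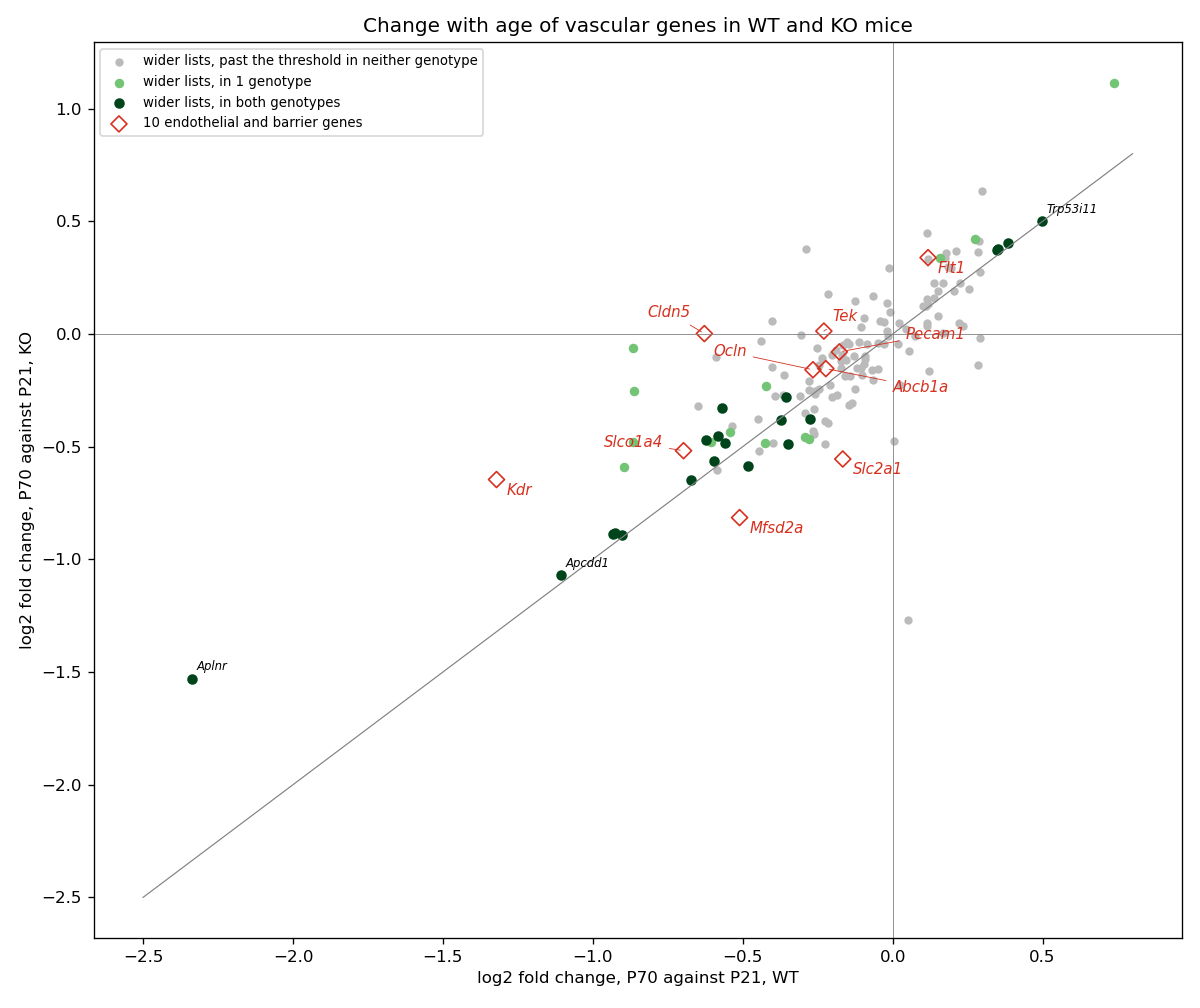
Log2 fold change from P21 to P70 in WT mice (x axis) against KO mice (y axis) for 146 genes of the vascular lists (dots, coloured by whether they passed the threshold in neither, 1 or both genotypes) and the 10 endothelial and barrier genes (diamonds); the diagonal marks equal change. The 20 genes that passed in both lie on the same side of 0 on both axes. Aplnr, the farthest at -2.34 and -1.53, passed the filter on low values only through its P21 values.

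No gene of these vascular lists differed between KO and WT mice after adjustment at either age. At an unadjusted p under 0.05 in limma, 2.44% of all genes tested passed at P21 and 1.13% at P70. The Notch list held 2 of 15 such genes at P21, the tip cell list 1 of 15, the transporters 1 of 27 and the activation list 1 of 6. Apart from the endothelial identity list, no vascular list held any at P70. The endothelial identity list held none of 31 genes at P21 and 2 at P70. These included Sox7, at 0.79 on the log2 scale (unadjusted p = 0.0142, adjusted p = 1.00 in limma).

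Markers of other cell types moved with age in these same mice. All 8 oligodendrocyte genes fell in both genotypes (medians of -1.11 in WT and -1.28 in KO mice), and their sum was 395441 to 445707 normalized counts in WT mice at P21 and 167007 to 191110 at P70. Haemoglobin and other red blood cell genes fell too, 5 of 5 in WT and 4 of 5 in KO mice, with sums of 24464 to 61276 in WT and 12038 to 30949 in KO mice at P21 and of 6982 to 9945 and 7287 to 13110 at P70. None of these markers was at 0 in any mouse. Of the cells that wrap brain vessels, 1 of 16 mural genes fell in WT mice and 2 in KO mice, with Rgs5 in both (-0.50 and -0.43). Col3a1 (-1.64 and -1.03) and Col1a1 (-0.65 and -0.66) led the 4 of 10 fibroblast genes that fell in both genotypes. Another 1 of these 10 genes rose in WT mice. Higher means at P70 were found for 5 of the 10 in WT and 4 in KO mice, with medians of -0.06 and -0.10. Among 13 astrocyte genes none passed in WT mice and 2 fell in KO mice. The sum of the neuronal markers was 162154 to 166602 in WT mice at P21 and 164915 to 175796 at P70. In KO mice this sum was 160728 to 166805 at P21 and 167694 to 177170 at P70, with no overlap of the ages. Between genotypes, all 5 red blood cell genes were lower in KO mice at P21 (median -0.75, each at an unadjusted p under 0.05 and none after adjustment), and all 10 choroid plexus genes had higher means in KO mice at both ages (medians of 0.24 at P21 and 0.29 at P70, none past the threshold). What part these shifts have in the changes of the 10 genes was not tested.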

How the data were processed

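The labels' RNA libraries were made from whole brain with the TruSeq v2 poly-A kit, and the authors quantified transcripts by Salmon 1.1.0 against GRCm38, corrected for GC bias, passed the estimates through tximport and divided them by DESeq2 size factors (DESeq2 1.26.0 and R 3.6.2 in the submitters' processing notes). The deposited signal is this normalized count, from which whole reads could not be recovered, so no count model was run. Symbols and lengths came from GENCODE M21 (19447 of 19463 identifiers matched), promoters from RefSeq (GRCm38.p6; 9 of the 10 genes matched). Pecam1 had none there.

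Groups followed the labels' age and genotype. Genes with a mean of at least 10 in the mice compared were tested on log2(value + 1) with limma 3.58.1 in R 4.3.3, using an intensity trend and Benjamini-Hochberg adjustment (threshold 0.05). Fold changes are on the log2(value + 1) scale and understate those of low genes. Single genes were also given two-sided exact permutation tests. The labels name no litter or batch, and p-values measure the spread between these mice.

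The 10 genes, the wider lists and the tests were chosen with earlier results of these data known. Named beside the 10 genes were, for each list, up to 2 genes with the largest rise and up to 2 with the largest fall in WT mice among those called alike in both genotypes, the gene with the smallest p between genotypes, and the 10 genes most like the mean of the 10. Vegfa, Angpt1, Angpt4, Ptprb, Plvap, Erg and Sox7 with age, and the motifs, were named after their values were seen. The model was tested on simulated data. Alternatives covered the trend, normalization, low-value filter, pseudocount, pooled fit, replicate block, length and GC content, threshold and each mouse left out.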

Additional observations from a re-analysis of the deposited data

How the results depend on the processing

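The count of the 10 genes past the threshold from P21 to P70 in WT mice was 3, and 2 to 4 under the alternatives run; between genotypes and in the interaction it was 0 under each of them. In KO mice it was 3, against 1 without the intensity trend, 5 after the length and GC correction, 5 without both replicate 5 mice at P70 and 0 at an adjusted p of 0.01; averaged over both genotypes it was 4, against 7 at an adjusted p of 0.1 and 8 without both replicate 5 mice. All genes called numbered 1643 in WT mice, against 3001 after the length and GC correction, 3000 without replicate 5, 603 at 0.01 and 2570 at 0.1. In KO mice they numbered 1467, against 913 with the replicate block, 3106 after the correction, 3759 without replicate 5, 615 at 0.01 and 2338 at 0.1. Averaged over both genotypes 4478 were called, against 2638 at 0.01. Between genotypes 1 gene was called at P21 after the correction and 1 at P70 without both replicate 5 mice, against 0. The difference of Cldn5 with age in KO mice, 0.00 with all mice, was -0.092 after the correction and -0.14 without replicate 5. The cause of these shifts was not tested.

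Leaving out 1 mouse at a time, 2 to 4 of the 10 genes passed with age in WT mice, 0 to 5 in KO mice, 4 to 6 averaged over both and 0 in each other comparison; all genes called ran from 912 (without WT replicate 4 at P21) to 3000 (without WT replicate 5 at P70), from 896 (without KO replicate 4 at P21) to 3759 (without KO replicate 5 at P70) and from 3957 to 5156. Differences that turned sign lay near 0. With age in KO mice that of Cldn5 ran from -0.14 to 0.15 and that of Tek from -0.12 to 0.15. Between genotypes at P21, that of Pecam1 ran from -0.096 to 0.0079, Flt1 from -0.18 to 0.027, Slco1a4 from -0.14 to 0.033, Abcb1a from -0.083 to 0.040, Tek from -0.10 to 0.091 and Ocln from -0.0019 to 0.099, where KO replicate 3 was the mouse left out at the upper end for all of these but Ocln. That of Abcb1a ran from -0.056 to 0.083 at P70 and from -0.020 to 0.12 in the interaction.

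Same-numbered mice did not all deviate together (r of -0.01 to 0.26 at P21, 0.07 to 0.71 at P70, -0.10 to 0.16 between WT ages and -0.12 to 0.16 between KO ages). The 0.71 was that of the replicate 5 mice, and differently numbered mice were not compared. The main fits took the numbers as names, so anything shared by number at P70 is not modelled in them. With the replicate block, 3 of the 10 genes passed in WT mice and 2 in KO mice (Slco1a4 and Kdr, while Mfsd2a and Slc2a1 did not pass), and 1265 and 913 of all genes. Without replicate 5 at P70, genes past the threshold in WT and KO mice were also counted in the lists not named with such counts above. Of all genes, 3000 of 17644 passed in WT and 3759 of 17654 in KO mice, in either direction, against which these counts are to be read. The lists held 3 and 5 of 15 Notch, 2 and 5 of 8 caveolae, 2 and 3 of 6 activation and 2 and 4 of 16 mural genes. There were 2 and 4 of 13 astrocyte, 6 and 5 of 10 fibroblast, 5 and 5 of 5 red blood cell and 3 and 3 of 10 choroid plexus genes. Neuronal genes numbered 5 and 4 of 9, oligodendrocyte genes 8 and 8 of 8 and microglia genes 1 and 2 of 10. The mural and microglia counts were near or below the share of all genes. The angiopoietin list is left out, because Angpt4 passed the filter on low values in both of these fits through its P21 values. The tip cell list is left out because of Aplnr, which with all mice passed that filter only through its P21 values. Depth is known here only as an estimate, and with 5 mice a group a difference of the size of the intervals given for KO against WT could have been missed.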

Other observations

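The pair Slc2a1 and Mfsd2a had its own company of genes. Ranked after the data had been seen by the r of their group-centred log2 values with the mean of the pair over the 20 mice, the first 10 of 17635 genes were Tekt4 (0.95), Mt2 (0.94), Necab3 (0.92), Plin4 (0.92), Ramp2 (0.92), Ucp2 (0.92), Pnpla2 (0.92), Tubb4a (0.92), Ankrd13a (0.91) and Chd9 (0.91). Mt2 is a metallothionein, Plin4 coats lipid droplets, Pnpla2 is the lipase that opens triglyceride stores, Ucp2 is a mitochondrial carrier and Ramp2 is an endothelial partner of the adrenomedullin receptor. Over these 10 genes the r ran from 0.27 (Plin4) to 0.94 (Necab3) at P21, from 0.93 to 0.99 at P70, from 0.77 to 0.89 without both replicate 5 mice at P70, and from 0.63 (Tubb4a) to 0.91 (Tekt4) after the length and GC correction. Tsc22d3 (0.87) and Fkbp5 (0.86), known glucocorticoid-induced genes, ranked 61st and 91st, and Sgk1 (0.51) and Pdk4 (0.37), known for the same induction, stood far lower. Mt1 (0.86) had rank 96. These genes, Mt1 included, were looked up after the ranking had been seen. All of these values are descriptions over mice that share depth and GC response within a library.

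In the remaining vascular lists, 1 of 8 genes of caveolae, transcytosis and fenestration rose in WT mice and 2 rose and 1 fell in KO mice, with Lrp1, a large endocytic receptor, rising in both (0.38 and 0.40 on the log2 scale). Of 6 endothelial activation genes tested, none passed in WT mice and Vcam1 fell in KO mice (-0.47); 4 of 6 had an unadjusted p under 0.05 in each genotype in limma, where 24.5% of all genes tested in WT and 22.7% in KO mice did. Of 10 microglia and perivascular macrophage genes, 1 fell in WT mice and 2 in KO mice, with Mrc1, a marker of perivascular macrophages, falling in both (-0.55 and -0.76). Of 10 choroid plexus genes 1 rose in WT mice and none passed in KO mice. Of 9 neuronal genes 1 rose and 1 fell in WT mice and 1 rose in KO mice, where Snap25 was the rising gene in both (0.25 and 0.29). In each genotype 3 of the 9 had a higher mean at P70 and 6 a lower one.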
